A study of Ovis aries with 15 samples.

Results

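The genes described here are 8 transcription factors of the hepatocyte: the nuclear receptor gene HNF4A, the forkhead genes FOXA1, FOXA2 and FOXA3, the leucine zipper genes CEBPA and CEBPB, and the homeobox genes ONECUT1 and PROX1. They were chosen by name, with earlier results of these data known, among the 31411 genes counted in a fetal sheep (Ovis aries) liver series. All 8 were found and passed the filter on low counts. The series holds 15 poly(A) RNA sequencing libraries of liver tissue, taken at gestational day (GD) 100 (4 libraries), GD124 (5 libraries) and GD144 (6 libraries), to follow the liver transcriptome over late gestation. The labels name no treatment, genotype, breed or sex, and nothing in them states that each library is a different fetus. The p-values therefore cover the spread among these libraries, which may be technical in part. The library codes begin with different letters at each stage, so any batch or cohort that follows them cannot be told apart from gestational age.

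Hepatocyte identity rests on a small network of transcription factors that bind each other's control regions and those of genes for plasma proteins and metabolic enzymes. In mice, FOXA proteins open chromatin early in liver specification, PROX1 and ONECUT1 act in hepatoblast growth and in the split between hepatocytes and bile duct cells, and HNF4A and CEBPA are needed for the mature hepatocyte programme. CEBPB is best known as the member of its family that hormones and inflammatory signals induce.

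Of the 8 factors, 7 had higher transcript levels and 1 had a lower level at GD144 than at GD100, a comparison in which 55% of all tested genes were called, 27.1% higher and 27.9% lower. FOXA2 was the factor that fell, to 3.398 ± 1.52 CPM at GD144 (SD, n = 6), against 15.2 ± 4.83 CPM at GD100 (SD, n = 4; edgeR adjusted p = 5.36e-06). CEBPB had the largest rise among the 8, to 101.3 ± 24.02 CPM at GD144 (SD, n = 6), against 23.8 ± 6.33 CPM at GD100 (SD, n = 4; edgeR adjusted p = 3.78e-06). CPM is the usual unit of counts per library size, here with library sizes corrected by trimmed mean of M values (TMM) factors. CPM values can be compared between libraries but not between genes of unequal length. In liver tissue sequenced in bulk, fewer cells of a type and less RNA per cell cannot be told apart.

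Library totals ran from 24215611 to 38247314 estimated counts, so the detection floor of 3 counts lay between 0.0797 and 0.128 CPM, counting error only, and every value of the 8 factors exceeded it. GD100 replicates 2 to 4 stand apart in the counting, with fractional counts in 10.6 to 10.8% of genes, against 5.09 to 6.2% in the other 12 libraries. Of the 120 values of the 8 factors none was fractional. The tissue label was met by the hepatocyte markers: 8 of 8 (ALB, APOA1, APOB, TTR, SERPINA1, AHSG, FGB and TF) were detected, with a summed level of 57440 to 173600 CPM at GD100, 217500 to 254100 CPM at GD124 and 169200 to 210900 CPM at GD144. Of 8 erythroid markers 7 were in the table, and 7 of 7 were called lower at GD144 than at GD124. For GD124 over GD100 only TFRC was called lower and 6 were not called. All 7 markers had negative estimates there, from log2 -1.98 (GATA1) to -1.34 (TFRC). Their summed level was 3401 to 8402 CPM at GD100, 1338 to 2640 CPM at GD124 and 71.9 to 600.4 CPM at GD144. GD144 replicate 3 held the highest value of its stage, and the next was 113.5 CPM. The part of these cells in the changes given here was not tested.

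**Figure D1:**
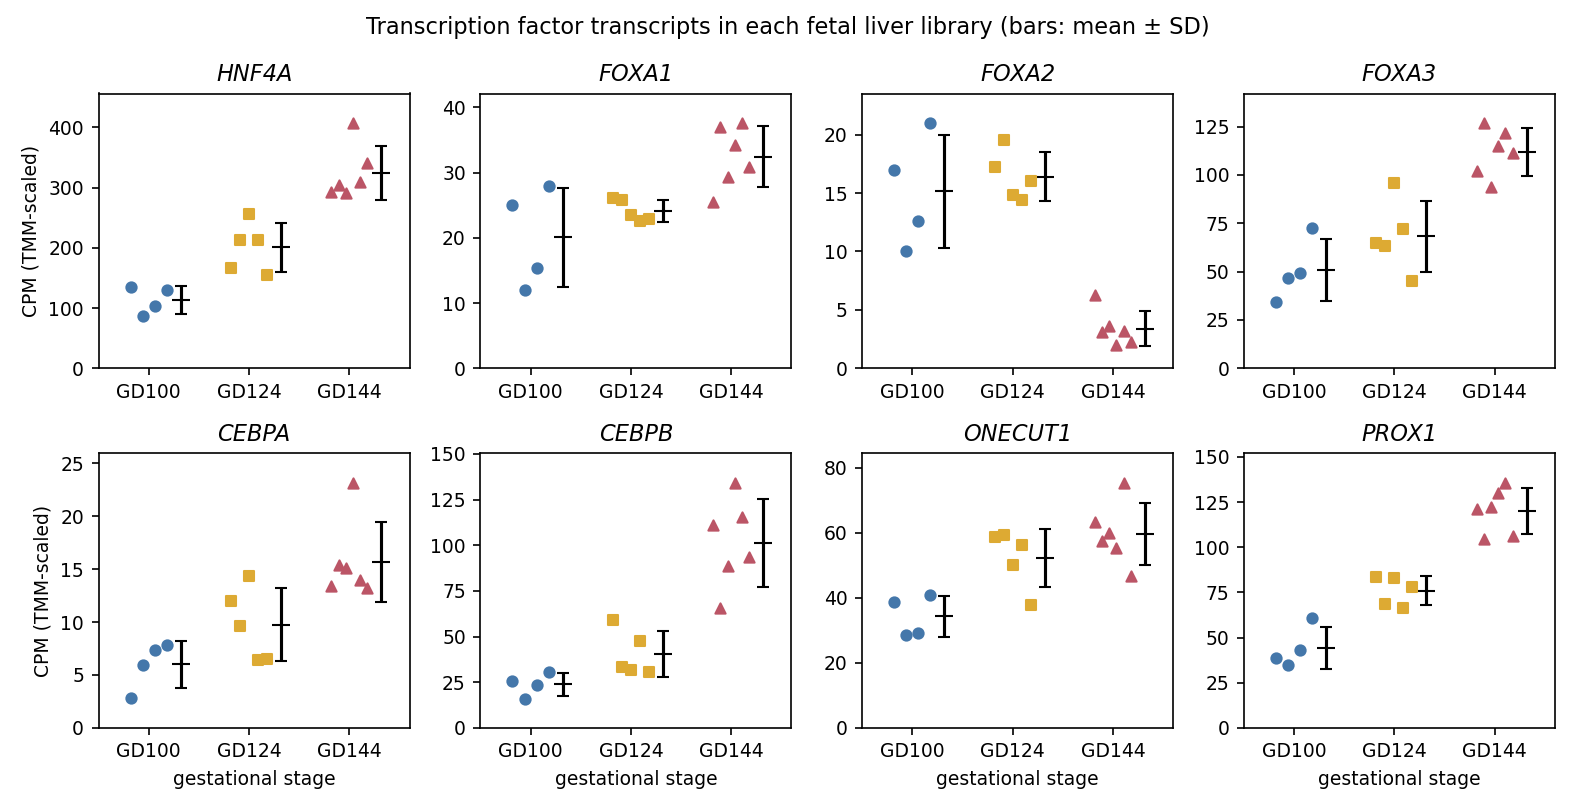
Transcript level of the 8 factors in each of the 15 libraries, in CPM on a linear axis that starts at 0, by gestational stage. Points are libraries, and the bars to their right are the mean ± SD; FOXA2 at GD144 (1.99 to 6.25 CPM) lies below all libraries of both other stages, while HNF4A and PROX1 step up at each stage without overlap.

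HNF4A, the receptor at the centre of the hepatocyte network, rose in both intervals. Its level was 135.4, 86.7, 102.8 and 130.6 CPM in GD100 replicates 1 to 4. At GD124 the values were 167.2, 212.9, 256.5, 213.0 and 154.6 CPM in replicates 1 to 5. The GD144 libraries ran from 290.4 to 407.5 CPM with a median of 307.3 CPM. No library of a later stage overlapped one of an earlier stage. The change was log2 0.82 ± 0.18 (SE, edgeR adjusted p = 0.00291) for GD124 over GD100 and log2 0.69 ± 0.16 (SE, edgeR adjusted p = 0.00461) for GD144 over GD124. The whole span came to 2.85-fold (edgeR adjusted p = 3.49e-06). HNF4A overlaps the long noncoding RNA gene LOC132657645 in the ARS-UI_Ramb_v3.0 annotation. Because it is not known whether counting used the strand, part of either count may belong to the other. LOC132657645 itself stood at 8.51 ± 3.76 CPM at GD144 and 1.37 ± 0.474 CPM at GD100 (SD, n = 6 and 4).

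PROX1, a homeobox factor that in mice is needed for hepatoblasts to migrate and grow, followed a similar course. It had 38.4, 34.8, 43.1 and 60.7 CPM at GD100 and 83.6, 68.8, 82.7, 66.1 and 78.2 CPM at GD124. The GD144 libraries held 104.4 to 135.8 CPM with a median of 121.9 CPM. The stages did not overlap. PROX1 rose by log2 0.78 ± 0.16 for GD124 over GD100 (SE, edgeR adjusted p = 0.00167) and by log2 0.66 ± 0.14 for GD144 over GD124 (SE, edgeR adjusted p = 0.00238). PROX1 also marks lymphatic endothelium. All 5 genes listed as markers of that cell type were in the table and 4 were tested. For GD144 over GD100 all 4 were higher, beside 27.1% of all tested genes. For GD124 over GD100, 2 (CCL21 and RELN) were called higher, beside 16.6% of all tested genes. For GD144 over GD124 only 1 (LYVE1) was called higher, beside 12.1%. The summed level of the list was 223.7 to 363 CPM at GD144 and 126.7 to 188.8 CPM at GD100. Most of the GD144 sum came from LYVE1 and RELN, with means of 146.3 and 102.6 CPM. Whether these genes mark that cell type alone in this tissue was not tested. PDPN, a defining marker, was too low to be tested. It averaged 0.743 CPM at GD144, where the median was 0.1997 CPM and the highest library held 3.142 CPM. At GD100 it averaged 0.0971 CPM, near the floor. The part of lymphatic endothelium in the PROX1 result was not tested.

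ONECUT1, also called HNF6, rose early and then differed little. GD100 libraries held 38.6, 28.5, 29.2 and 40.8 CPM, and GD124 libraries held 58.7, 59.3, 50.1, 56.1 and 37.8 CPM. The GD144 libraries ran from 46.7 to 75.5 CPM with a median of 58.7 CPM. GD124 replicate 5 alone fell within the GD100 range. The rise was log2 0.61 ± 0.17 for GD124 over GD100 (SE, edgeR adjusted p = 0.0108), and the difference was log2 0.19 ± 0.15 for GD144 over GD124 (SE, edgeR adjusted p = 0.384). The test of the later against the earlier change did not separate them (log2 -0.43 ± 0.27, SE, edgeR adjusted p = 0.36).

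The FOXA genes encode closely related forkhead proteins, yet the FOXA2 transcript took a different course from those of FOXA1 and FOXA3. FOXA2 showed 17.0, 10.1, 12.6 and 21.0 CPM in GD100 replicates 1 to 4. At GD124 it stood at 17.3, 19.6, 14.8, 14.4 and 16.0 CPM. At GD144 it held 6.25, 3.12, 3.59, 1.99, 3.15 and 2.29 CPM in replicates 1 to 6, from 195, 85, 135, 69, 105 and 66 counts. All GD144 libraries thus lay below every library of both other stages, whereas GD124 and GD100 overlapped. FOXA2 fell by 2.27 ± 0.26 on the log2 scale for GD144 over GD124 (SE, edgeR adjusted p = 2.12e-05), and its level was 4.825-fold lower. Only 3.72% of the 16977 tested genes had a more negative change in that comparison. For GD124 over GD100 FOXA2 differed by log2 0.12 ± 0.28 (SE, edgeR adjusted p = 0.778), a value whose sign turned with scaling by total counts alone (log2 -0.04).

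FOXA2 was also the only factor of the 8 whose later change differed from its earlier one in the test of that difference. The later minus the earlier log2 change was -2.39 ± 0.44 (SE, edgeR adjusted p = 0.00857), and 5.9% of all tested genes passed that test, 3.75% with a more negative and 2.15% with a more positive later change. With replicate 1 alone standing for GD100 it was -2.21 and missed the threshold (edgeR adjusted p = 0.0505). In that fit, here and for the factors below, GD100 adds no spread of its own, and its single library is assumed to vary like the libraries of the other stages. FOXA2 is also expressed in bile duct cells. Of 8 bile duct markers 7 were in the table, and none of them was called for GD144 over GD124. Their summed level was 28.4 to 53.5 CPM at GD144 and 29.9 to 58.5 CPM at GD124. KRT19, a duct keratin, had 9.11 ± 2.73 CPM at GD144 and 8.92 ± 1.56 CPM at GD124 (SD, n = 6 and 5). Among 5 hepatoblast markers, 2 (AFP and DLK1) were called lower in that comparison and 3 were not called. The part of bile duct cells and hepatoblasts in the FOXA2 result was not tested.

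FOXA3, the FOXA gene best known for its activity in the adult mouse liver, rose. Its libraries held 34.5, 46.5, 49.5 and 72.5 CPM at GD100 and 65.0, 63.3, 95.8, 71.9 and 45.2 CPM at GD124. The GD144 libraries ran from 93.7 to 126.9 CPM with a median of 113.3 CPM, and only GD144 replicate 3 lay below GD124 replicate 3. The change for GD144 over GD124 was log2 0.71 ± 0.19 (SE, edgeR adjusted p = 0.0107). For GD124 over GD100 it was log2 0.43 ± 0.21 (SE, edgeR adjusted p = 0.127), and the libraries of both stages overlapped. It passed without GD100 replicate 4 (edgeR adjusted p = 0.0256) or GD124 replicate 5 (edgeR adjusted p = 0.0466).

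FOXA1 acts alongside FOXA2 in mouse liver specification, and its level changed little in the earlier interval. It had 25.0, 11.98, 15.4 and 28.0 CPM at GD100, a spread that enclosed the 26.1, 25.8, 23.5, 22.6 and 22.9 CPM of GD124. The GD144 libraries ran from 25.5 to 37.6 CPM with a median of 32.6 CPM. FOXA1 passed the test over the whole span alone, by log2 0.69 ± 0.20 (SE, edgeR adjusted p = 0.00704), and even there the libraries overlapped. With replicate 1 alone standing for GD100, where the SE comes from GD124 and GD144 only, this change missed the threshold (log2 0.39, edgeR adjusted p = 0.158), and the change for GD124 over GD100 was then log2 -0.05. With all libraries that change was log2 0.27 ± 0.20 (SE, edgeR adjusted p = 0.33). For GD144 over GD124 the change was log2 0.43 ± 0.18 (SE, edgeR adjusted p = 0.0952), and it passed when only the libraries of these 2 stages were fitted (edgeR adjusted p = 0.00991), with total counts alone (0.0313) and without GD100 replicate 2 (0.0254) or GD100 replicate 4 (0.0428).

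CEBPB had the largest rise of the 8 factors between GD124 and GD144. GD100 libraries held 25.6, 15.5, 23.4 and 30.8 CPM, and GD124 libraries held 58.8, 33.1, 31.9, 47.7 and 30.3 CPM. The GD144 libraries ran from 65.5 to 134.3 CPM with a median of 102.2 CPM, all of them above GD124. CEBPB rose by log2 1.33 ± 0.22 for GD144 over GD124 (SE, edgeR adjusted p = 0.00041), a 2.51-fold change. For GD124 over GD100 it rose by log2 0.76 ± 0.25 (SE, edgeR adjusted p = 0.0247), with 1 GD124 library inside the GD100 range. This earlier call was lost without GD100 replicate 2, GD100 replicate 3, GD124 replicate 1 or GD124 replicate 4 (edgeR adjusted p up to 0.0924) and with total counts alone (edgeR adjusted p = 0.0618). CEBPB is expressed in myeloid cells too. Of 6 macrophage markers that were detected, 2 were called higher and none lower at GD144 than at GD124. Their summed level was 273.8 to 504.7 CPM at GD144 and 220.9 to 390.9 CPM at GD124. Of 8 granulocyte markers 4 were called lower and none higher. The sums of these markers were 1.11 to 39.4 CPM at GD144 and 32.5 to 128.4 CPM at GD124. The part of macrophages and granulocytes in the CEBPB result was not tested.

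CEBPA, which in mice restrains hepatocyte division and drives genes of glucose and ammonia handling, gave the fewest counts of the 8 at GD100 and varied between libraries. It showed 2.84, 5.97, 7.32 and 7.86 CPM at GD100 and 11.9, 9.58, 14.3, 6.43 and 6.53 CPM at GD124. The GD144 libraries ran from 13.2 to 23.2 CPM with a median of 14.5 CPM. GD144 lay above all GD100 libraries, while GD124 overlapped with both. Over the whole span CEBPA rose 2.62-fold (log2 1.39 ± 0.29, SE, edgeR adjusted p = 0.000715). Neither interval alone passed, with log2 0.70 ± 0.29 for GD124 over GD100 (SE, edgeR adjusted p = 0.0744) and log2 0.69 ± 0.26 for GD144 over GD124 (SE, edgeR adjusted p = 0.0628). The earlier value passed without GD124 replicate 4 (edgeR adjusted p = 0.049) or GD124 replicate 5 (edgeR adjusted p = 0.0458). The later value passed with DESeq2 (adjusted p = 0.0366), and with edgeR it passed with total counts alone (adjusted p = 0.0444), with only the stages compared (0.0288) and without GD100 replicate 1 (0.0259) or GD124 replicate 3 (0.028). The CEBPA gene model of ARS-UI_Ramb_v3.0 spans 1088 bases and that of CEBPB 1912 bases. Both genes lack introns in other mammals, and neither overlaps another gene in that annotation.

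**Figure D2:**
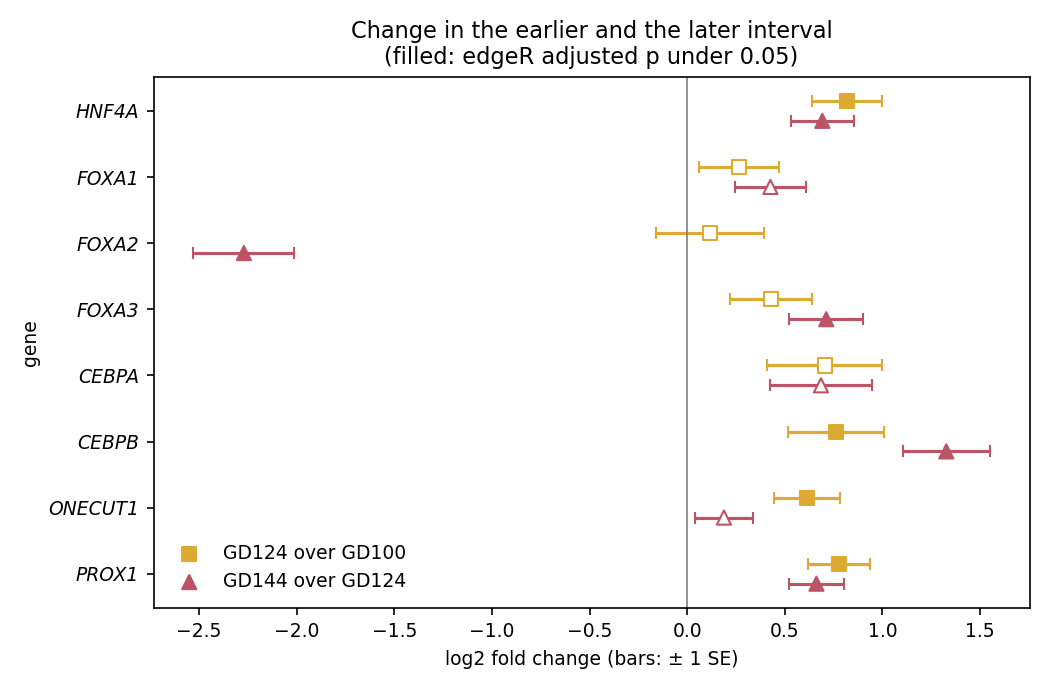
Log2 fold change of each factor for GD124 over GD100 (squares) and for GD144 over GD124 (triangles), with bars of 1 SE from the edgeR fit of all 15 libraries; filled symbols passed an adjusted p of 0.05. FOXA2 has no clear change in the earlier interval and log2 -2.27 in the later one, while the other 7 factors lie to the right of 0 in both.

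Counted together, 4 of the 8 factors (HNF4A, PROX1, ONECUT1 and CEBPB) rose and none fell for GD124 over GD100. Over all 16977 tested genes 34% were called in this comparison, 16.6% higher and 17.4% lower. Libraries did not overlap for 2 of the 4, beside 24.3% of all tested genes in either direction, 11.6% higher and 12.6% lower. With replicate 1 alone standing for GD100, PROX1, FOXA3 and CEBPA passed (edgeR adjusted p = 0.0437 for FOXA3 and 0.02 for CEBPA), and the values of FOXA3 and CEBPA in that library were the lowest of the 4 GD100 libraries. In the same fit HNF4A, CEBPB and ONECUT1 had adjusted p of 0.156, 0.265 and 0.267. For GD144 over GD124, 4 factors (HNF4A, PROX1, CEBPB and FOXA3) rose and FOXA2 fell, beside 27.5% of tested genes called, 12.1% higher and 15.4% lower. In the same comparison 5 of 5 endothelial markers rose, with a summed level of 307.1 to 472.2 CPM at GD144 and 145.1 to 303.8 CPM at GD124. Of 7 stellate and mesenchymal markers 2 rose and none fell, with sums of 823.3 to 1451 CPM at GD144 and 878.5 to 1149 CPM at GD124, and 4 rose for GD144 over GD100. The part of these cells in the changes of the factors was not tested. Libraries did not overlap for 3 higher factors and for FOXA2, beside 18.8% of tested genes without overlap, 7.81% higher and 11% lower. For GD144 over GD100, 7 rose and FOXA2 fell, beside 55% of tested genes called, 27.1% higher and 27.9% lower. Both ONECUT1 (edgeR adjusted p = 0.0715) and FOXA1 missed the threshold when replicate 1 alone stood for GD100. In this comparison 6 of the rising factors and FOXA2 showed no overlap, beside 40% of tested genes, 19.2% higher and 20.8% lower. The median log2 change of the 8 factors was 0.66, 0.67 and 1.27 in the 3 comparisons in that order, and the median of all tested genes was 0.02, -0.01 and 0.03. All 8 passed the test for any difference between the stages, which 56.3% of tested genes passed. The comparisons share libraries, so their counts are not independent of each other. Because the 8 factors were chosen with earlier results of these data known, setting their counts beside these shares is not a test.

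Ratios of genes from the same library do not depend on library size or scaling. The log2 ratio of FOXA2 to FOXA1 counts (2 counts added to each) was -3.32 ± 0.72 at GD144 and -0.56 ± 0.11 at GD124 (SD, n = 6 and 5). The difference of -2.76 (6.76-fold lower) had a two-sided exact permutation p of 0.00433, the smallest that the design allows, and 0.026 after adjustment over 12 ratio tests. At GD100 the ratio was -0.38 ± 0.14 (SD, n = 4), and GD124 differed from it by -0.18 (exact permutation adjusted p = 0.141). For FOXA3 to FOXA2 the ratio was 5.11 ± 0.65 at GD144 and 2.02 ± 0.48 at GD124 (SD, n = 6 and 5). This is an 8.50-fold higher ratio at GD144 (exact permutation adjusted p = 0.026). Against GD100 the differences at GD144 were -2.94 for FOXA2 to FOXA1 and 3.36 for FOXA3 to FOXA2 (exact permutation adjusted p = 0.0286 each). Both calls were lost without any 1 of the GD100 libraries (exact permutation adjusted p = 0.0571 to 0.0714). Fewer samples raise the smallest possible p, so this loss cannot show whether a difference rests on 1 library. With medians in place of means the adjusted p of these 4 differences was 0.0857. These are ratios of counts of genes of unequal length, so only their change between stages is compared.

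The other ratios showed differences that did not pass the test. FOXA3 to FOXA1 stood at 1.79 ± 0.12 at GD144 and 1.46 ± 0.40 at GD124 (SD, n = 6 and 5, exact permutation adjusted p = 0.141). Its 6 GD144 libraries ran from 1.67 to 2.0, against 0.98 to 2.03 at GD124 and 0.46 to 1.95 at GD100, so it was least scattered at the latest stage. The log2 ratio of CEBPB to CEBPA was 2.68 ± 0.37 at GD144 and 2.06 ± 0.64 at GD124 (SD, n = 6 and 5, exact permutation adjusted p = 0.141). At GD100 it was 3.14 in replicate 1 and 1.37 to 1.96 in replicates 2 to 4.

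**Figure D3:**
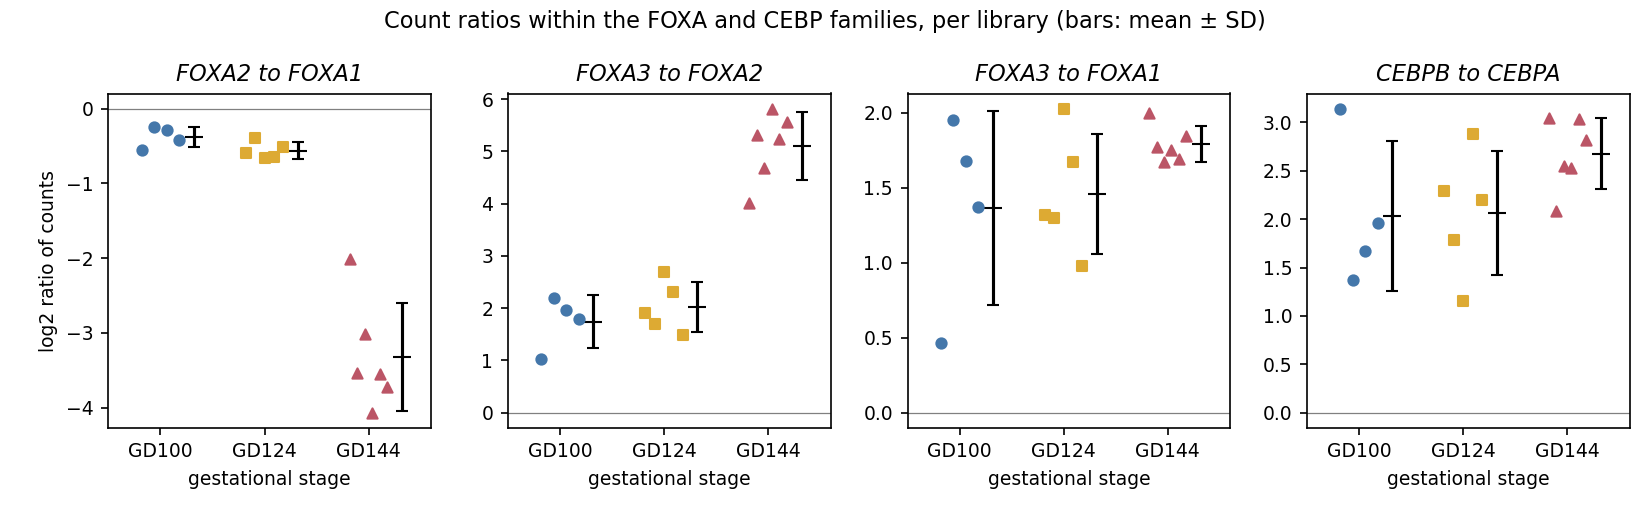
Log2 ratio of counts (2 counts added to each gene) for pairs of FOXA genes and for CEBPB to CEBPA in each library, by stage, with the mean ± SD beside the points. FOXA2 to FOXA1 lies between -4.07 and -2.02 at GD144 and between -0.66 and -0.25 in all libraries of both earlier stages, without overlap, whereas CEBPB to CEBPA overlaps between all stages.

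Of the 8 hepatocyte markers 6 rose for GD124 over GD100, so the 8 factors were also set against them, a comparison added after the data were seen. The mean log2 CPM of the 8 markers was 13.55 ± 0.065 at GD124 and 12.23 ± 0.65 at GD100 (SD, n = 5 and 4). At GD144 it was 13.35 ± 0.13 (SD, n = 6). Relative to this mean all 8 factors were lower at GD124 than at GD100, by 0.50 (HNF4A) to 1.16 (FOXA2) on the log2 scale. The marker mean itself rose by 1.32 there, more than any factor (at most log2 0.82, HNF4A). All 8 signs therefore follow from the rise of this shared reference and are not separate results. Among the markers, 6 also stand in the lists of target genes of these factors, so the reference is not independent of them. The exact permutation test, adjusted over 24 comparisons, called FOXA1, FOXA2 and PROX1 (adjusted p = 0.0293 each). From GD124 on the picture was the opposite for 7 factors. ONECUT1 differed by 0.40 (exact permutation adjusted p = 0.0795) for GD144 against GD124, and the other 6 rose by 0.62 (FOXA1) to 1.55 (CEBPB), with exact permutation adjusted p of 0.0173 to 0.0229. Set against the markers FOXA2 differed by -2.135 (exact permutation adjusted p = 0.0173). The direction of the earlier change thus depends on whether a factor is set against all transcripts or against these marker transcripts, and that of the later change does not for any of the 8. Over the whole span FOXA1 and ONECUT1 also turned, to -0.36 and -0.31, and neither of these values passed the test (exact permutation adjusted p = 0.0714 and 0.25). FOXA3, CEBPA and PROX1 also lost their whole-span calls, at 0.065, 0.33 and 0.35 (exact permutation adjusted p = 0.791, 0.447 and 0.137). Of the 7 factors that rose over the whole span, HNF4A (0.41) and CEBPB (0.97) passed against the markers (exact permutation adjusted p = 0.0229 each), and FOXA2 passed as lower (-3.30, exact permutation adjusted p = 0.0229). Of the markers, TTR alone was called for GD144 over GD124, and it fell by 1.30 on the log2 scale.

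**Figure D4:**
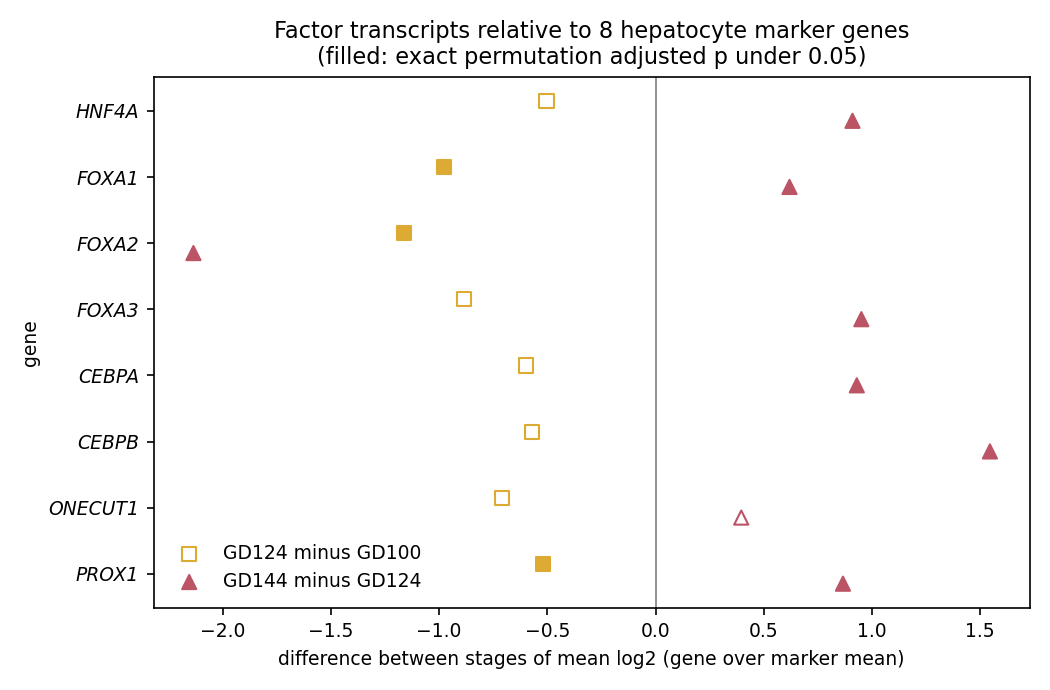
Difference between stages in the mean log2 level of each factor after subtraction of the mean log2 CPM of 8 hepatocyte markers in the same library, for GD124 minus GD100 (squares) and GD144 minus GD124 (triangles); filled symbols passed an exact permutation adjusted p of 0.05. All squares lie left of 0, from -1.16 to -0.50, and all triangles except FOXA2 (-2.135) lie right of 0.

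How alike profiles were was measured as the root mean square difference of log2 CPM over the 15 libraries, after each gene was centred on its own mean. Among the 8, HNF4A and PROX1 were the closest pair (0.265 log2 units) and FOXA1 and ONECUT1 followed (0.271). FOXA2 lay 1.39 to 2.003 units from each of the other 7. Of 8215 other named genes with a mean of at least 10 CPM, those most like FOXA2 were MAMLD1 (0.31), USP27X (0.37) and DTNB (0.38). MAMLD1 had 771.0 ± 196.7 CPM at GD100, 783.6 ± 147.3 CPM at GD124 and 173.2 ± 89.0 CPM at GD144 (mean ± SD). For CEBPB they were ERRFI1, an inhibitor of the epidermal growth factor receptor (0.25), and DCXR (0.29). LRATD2, ERGIC1 and PDXK (0.17 each) were nearest to HNF4A, and AIFM1, a mitochondrial flavoprotein (0.15), INPP5F (0.16) and OS9 (0.17) to PROX1. The nearest to FOXA1 were TMCC1, SLC25A13, the mitochondrial aspartate carrier, and TWF1 (0.17 to 0.18). DCAF11, PSEN2 and VASN were nearest to FOXA3 (0.18 to 0.21), ARSB and GDI2 to CEBPA (0.24 each) and ALG13, BET1 and SURF4 to ONECUT1 (0.14 to 0.15).

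Relatives of the 8 factors were read from a list of 11 genes, of which 10 were tested and ONECUT3 was too low. For GD144 over GD100, 7 rose and 1 fell, beside 27.1% of all tested genes higher and 27.9% lower. Their median log2 change was 0.60, and that of all tested genes was 0.03. HNF4G, the second HNF4 receptor gene, rose most, to 26.1 ± 8.88 CPM at GD144, against 5.08 ± 2.93 CPM at GD100 (SD, n = 6 and 4, log2 2.36, edgeR adjusted p = 2.66e-05). ONECUT2 had 114.1 ± 13.9 CPM at GD144 and 36.4 ± 31.5 CPM at GD100 (log2 1.65, edgeR adjusted p = 0.00121). CEBPD, like CEBPB an inducible member of its family, had 136.2 ± 20.2 CPM at GD144 and 46.1 ± 14.8 CPM at GD100 (log2 1.56, edgeR adjusted p = 2.30e-05). CEBPE, a granulocyte factor, was the relative that fell, to 0.185 ± 0.107 CPM at GD144, against 0.729 ± 0.470 CPM at GD100 (edgeR adjusted p = 0.00667), and its lowest GD144 library at 0.0601 CPM was under the floor. Granulocyte markers fell with it, 5 of 8, with sums of 1.11 to 39.4 CPM at GD144 and 54.0 to 89.0 CPM at GD100, and their part in this was not tested. ONECUT2 and CEBPZ overlap other genes in the annotation, and their values are uncertain for that reason.

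Among 22 other factors enriched in liver, 14 rose and 1 fell for GD144 over GD100, with a median log2 change of 0.55, beside 27.1% of all tested genes higher and 27.9% lower. The largest rises were those of HLF, a circadian-linked zipper factor (32.4 ± 6.42 CPM at GD144 and 6.89 ± 0.806 CPM at GD100, log2 2.23, edgeR adjusted p = 6.61e-08), ZBTB20, a repressor of AFP in mice (87.9 ± 14.5 and 23.6 ± 4.89 CPM at these stages, log2 1.90), and NFIL3 (22.7 ± 7.31 and 6.95 ± 1.28 CPM, log2 1.71). GATA6 fell, to 30.6 ± 2.79 CPM at GD144, against 43.3 ± 13.6 CPM at GD100 (log2 -0.50, edgeR adjusted p = 0.0215). Those nuclear receptor genes of this list that were called differed in the interval. NR1H4, the bile acid receptor, NR5A2 and NR2F2 rose for GD124 over GD100 (log2 0.82, 0.57 and 0.59) and were not called for GD144 over GD124. NR2F1 fell in the earlier interval (log2 -0.68, edgeR adjusted p = 0.0121) and rose in the later one (log2 0.63, edgeR adjusted p = 0.0134). NR1I2, the xenobiotic receptor, PPARA and RXRA rose for GD144 over GD124 (log2 1.13, 0.43 and 0.44) and were not called for GD124 over GD100. The test of the later against the earlier change called NR1H4 (log2 -1.05, edgeR adjusted p = 0.00994) and NR2F1 (log2 1.31, edgeR adjusted p = 0.0273). It did not call NR5A2, NR2F2, NR1I2, PPARA or RXRA (edgeR adjusted p = 0.152, 0.0679, 0.375, 0.637 and 0.144). ZBTB20, GATA6 and PPARA overlap noncoding RNA genes in the annotation.

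Of 14 cofactor genes, all tested, 2 rose and 3 fell for GD144 over GD100, and the median log2 change was -0.20. Over all tested genes 27.1% were higher and 27.9% lower, so the share of cofactors called was under that of all genes. PPARGC1A, a coactivator that HNF4A and other receptors use on gluconeogenic genes, rose to 45.3 ± 11.6 CPM at GD144, against 8.66 ± 2.24 CPM at GD100 (SD, n = 6 and 4, log2 2.39, edgeR adjusted p = 5.53e-07). It was called in both intervals. NCOA1 rose by log2 0.41 over the whole span. CRTC2, a coactivator of cAMP-driven transcription, and the histone-modifying enzyme genes EP300 and KDM1A fell by 0.79, 0.78 and 0.56 on the log2 scale.

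**Figure D5:**
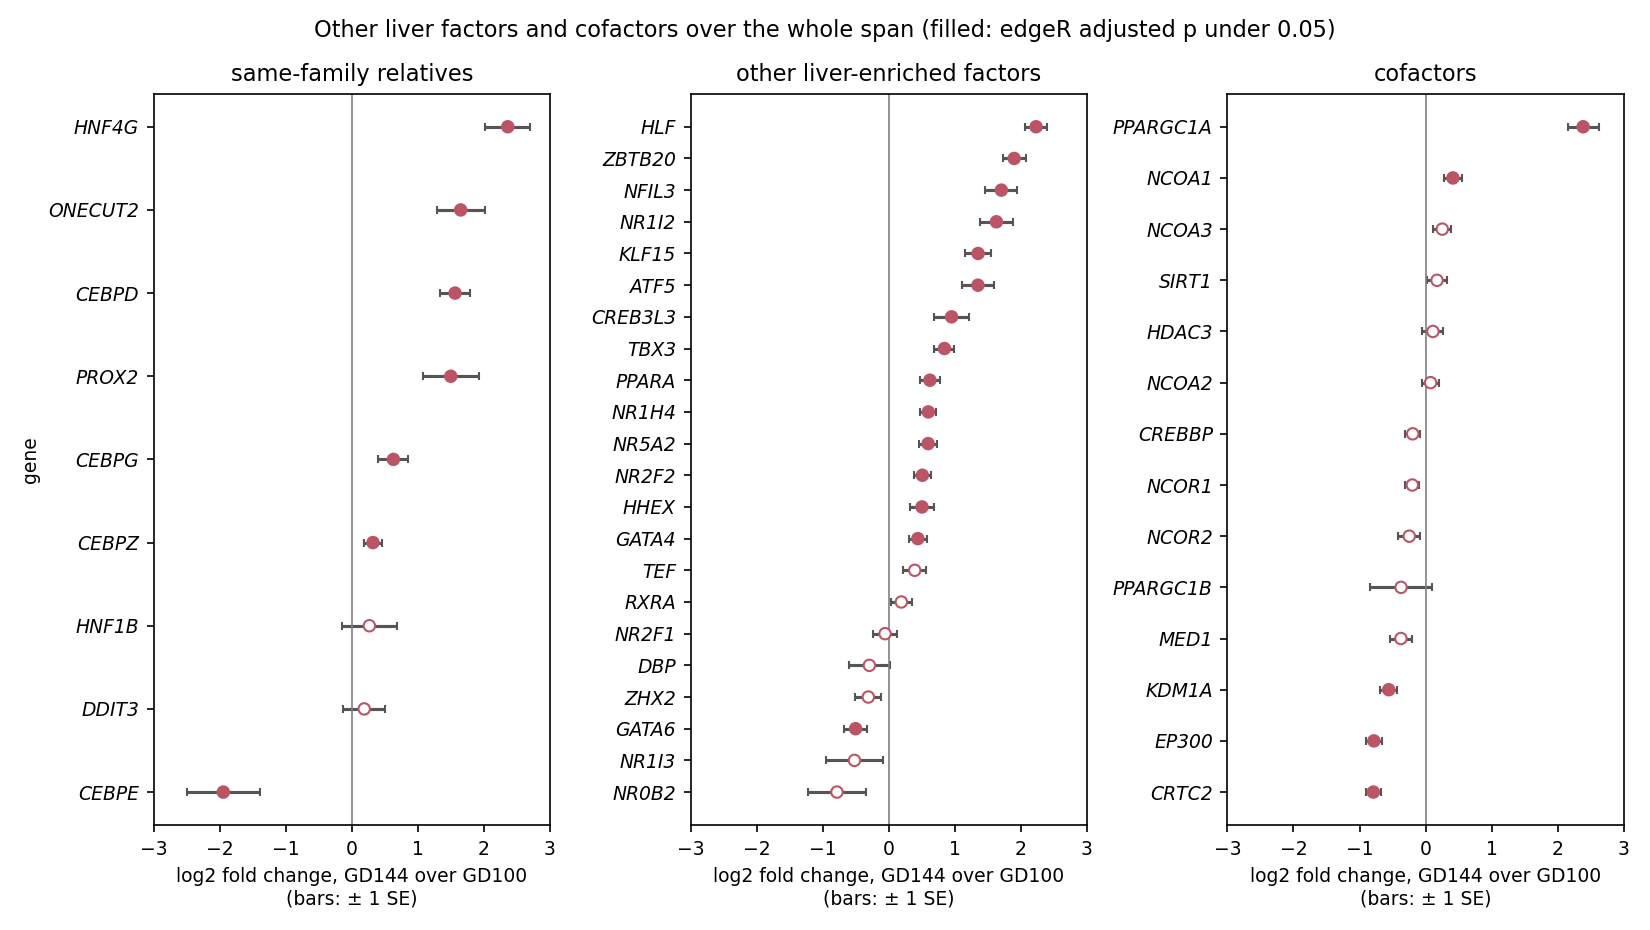
Log2 fold change for GD144 over GD100, with bars of 1 SE, for 9 tested relatives of the 8 factors (left), other liver-enriched factors (middle) and cofactors (right); filled symbols passed an edgeR adjusted p of 0.05. HNF4G, HLF and PPARGC1A top their panels at log2 2.36, 2.23 and 2.39, and CEBPE lies lowest at log2 -1.94.

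Genes that the factors are known to act on, mostly from work in mice and human cells, were counted from 4 lists with 36 distinct genes. Of these 33 were tested, 9 stood in more than 1 list, 6 are hepatocyte markers as well and 2 are themselves among the 8 factors. For GD124 over GD100, 21 rose and 1 fell with a median log2 change of 0.93, and for GD144 over GD124, 9 rose and 3 fell with a median of 0.31. Over all tested genes 16.6% were higher and 17.4% lower in the first of these comparisons, and 12.1% higher and 15.4% lower in the second, which is the background for the counts of each list that follow. Of 16 tested HNF4A targets 10 rose in the first comparison, and 2 (F10 and APOH) rose and 1 (TTR) fell in the second. F10, APOH and AFP are named after their values were seen. Of 10 FOXA targets 8 rose and AFP fell in the first, and 3 rose and 2 (AFP and TTR) fell in the second. AFP, the fetal plasma protein, had 8.17 ± 5.48 CPM at GD144 and 1467 ± 633.5 CPM at GD124 (SD, n = 6 and 5, log2 -7.49, edgeR adjusted p = 3.66e-07). The most abundant of them, ALB, had 66330 ± 10040 CPM at GD144 and 70690 ± 5486 CPM at GD124 (SD, n = 6 and 5, edgeR adjusted p = 0.852). TTR, the thyroxine carrier, stands in all 4 lists. It had 1501 ± 568 CPM at GD144 and 3701 ± 647.3 CPM at GD124 (SD, n = 6 and 5, log2 -1.30, edgeR adjusted p = 0.00292). Of 14 tested CEBP targets 11 rose in the first comparison, and 6 rose and TTR fell in the second. CPS1, the entry enzyme of the urea cycle, had 6055 ± 2015 CPM at GD144 and 3511 ± 363.9 CPM at GD124 (log2 0.79, edgeR adjusted p = 0.0376). Of 7 tested ONECUT1 targets, which include HNF4A and FOXA2, 3 rose and 2 fell for GD144 over GD124. G6PC1 and PCK1, enzymes of gluconeogenesis, were 2 of those that rose. G6PC1 had 578.1 ± 155.4 CPM at GD144 and 105.6 ± 59.1 CPM at GD124 (log2 2.45, edgeR adjusted p = 0.000528), and PCK1 had 150.6 ± 92.6 CPM at GD144 and 32.5 ± 15.1 CPM at GD124 (log2 2.21, edgeR adjusted p = 0.00601).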

How the data were processed

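The deposited table holds estimated counts per gene, made by the authors with DRAGEN, per the submitters' processing notes; neither the DRAGEN release nor a build, gene set or strand setting is given in the sources used here. Poly(A) RNA of 15 liver libraries was sequenced from paired ends, per the labels' protocols. All 15 columns were matched by name. Of the estimated counts 6.549% were fractional, and they were rounded to whole numbers, which moved a library's total by at most 27.86 reads. Totals were 24215611 to 38247314, and the floor of 3 counts covers counting error only.

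Genes passing filterByExpr (16977 of 31411) were fitted over all libraries with edgeR 4.0.16 (R 4.3.3), robust quasi-likelihood F tests and TMM factors, with Benjamini-Hochberg adjustment over all tested genes and a threshold of 0.05. The SE is the absolute log2 change divided by the square root of F. Ratios (2 counts added) and values relative to markers were compared by two-sided exact permutation, adjusted over 12 and 24 comparisons. Log2 CPM used a prior count of 2. The scripts were tested on simulated data. No pairing of libraries by replicate number was seen, though the check made cannot exclude it.

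The members and the gene lists were chosen with earlier results of these data known. Named genes were the 8 factors, called genes of the factor and cofactor lists with up to 3 largest rises and falls, up to 4 most abundant genes of each target list, and the 3 nearest profiles per factor among genes with at least 10 CPM. Alternatives were scaling by RLE, by total counts and without the 20 most abundant genes, 2 other filters, DESeq2 1.42.0, no robust estimation, only the stages compared, a replicate block, replicate 1 alone for GD100, each library left out, and, for ratios, offsets of 0.5 and 10 counts and medians. RefSeq annotation of ARS-UI_Ramb_v3.0 served only for names and overlapping genes. Levels were not divided by gene length. Some genes that these rules name are not reported here.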

Additional observations from a re-analysis of the deposited data

Results flagged for a closer look

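FOXA2 in GD144 replicate 1 stood at 6.254 CPM, apart from the other 5 libraries of its stage, which held 1.989 to 3.585 CPM. Its gap to the nearest was 0.626 of the whole range, just past the limit of 0.625 for 6 samples, and the library still lay below all GD124 and GD100 libraries. CEBPA in GD144 replicate 4 stood at 23.18 CPM, with the next library at 15.4 CPM and the lowest at 13.19 CPM, a gap of 0.779 of the range. Chance marks about 1 in 20 such groups, and 2 of 36 were marked here. The FOXA2 change differed between the intervals, with a later minus earlier log2 change of -2.39 (edgeR adjusted p = 0.00857).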

How the results depend on the processing

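Over 10 planned settings other than leaving out a library, 222 of 240 log2 changes of the 8 factors kept direction and call, 6 lost and 9 gained the call, and 3 reversed. With total counts alone FOXA2 for GD124 over GD100 was -0.043, and 8 other factors and cofactors, not 4, were lower in that comparison. With replicate 1 alone for GD100, 3167 genes in place of 5774 were called for GD124 over GD100, FOXA1 was -0.051 and FOXA2 -0.049, 3 other factors and cofactors were higher and 0 target genes lower. In that setting 14 target genes were higher and 5 lower for GD144 over GD124, 15 other factors and cofactors were higher for GD144 over GD100, and 0 of the 8 factors had intervals that differed. The log2 ratio of CEBPB to CEBPA then differed from GD100 by -1.08 at GD124 and -0.464 at GD144, FOXA3 to FOXA1 by 0.994 and 1.326, FOXA3 to FOXA2 by 0.998 and 4.086, and FOXA2 to FOXA1 by -0.004 for GD124 against GD100. With medians, FOXA3 to FOXA1 was -0.208 for GD124 against GD100. FOXA3 to FOXA2 was 3.367 for GD144 against GD124 and 3.401 for GD144 against GD100, and FOXA2 to FOXA1 -2.952 and -3.194, all with exact permutation adjusted p of 0.0857. Relative to hepatocyte markers (added after the data were seen) the values for GD124 against GD100 were -0.504 (HNF4A), -0.977 (FOXA1), -1.161 (FOXA2), -0.885 (FOXA3), -0.6 (CEBPA), -0.571 (CEBPB), -0.71 (ONECUT1) and -0.518 (PROX1), and for GD144 against GD100 -0.358 (FOXA1) and -0.314 (ONECUT1). FOXA3 (0.065), CEBPA (0.33) and PROX1 (0.348) lost their calls for GD144 against GD100 (exact permutation adjusted p = 0.791, 0.447 and 0.137). Leaving out each library in turn kept 347 of 360 values. FOXA2 for GD124 over GD100 then ran from -0.06 to 0.291, CEBPB to CEBPA from -0.193 to 0.397 and FOXA3 to FOXA1 from -0.209 to 0.287. For GD144 against GD124, FOXA3 to FOXA1 ran from 0.212 to 0.474 (called without GD124 replicate 3, exact permutation adjusted p = 0.0229). For GD144 against GD100, FOXA3 to FOXA2 ran from 3.123 to 3.582 and FOXA2 to FOXA1 from -3.201 to -2.791, with exact permutation adjusted p up to 0.0714 without 1 GD100 library, where fewer samples raise the smallest p. Other factors and cofactors lower for GD144 over GD124 numbered 1 (without GD144 replicate 4) to 3. Where not stated, the cause was not tested. The replicate block changed no call of the 8 factors. Of 13 pairs of same-numbered libraries 1 had a correlation over 0.1 (range -0.155 to 0.144), and libraries with different numbers reached 0.181. No pairing by number was seen, but this check cannot exclude it. At GD144 FOXA2 rests on 66 to 195 counts.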
